A study of Mus musculus with 8 samples.

Results

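The 8 genes of the megakaryocyte myosin and platelet cytoskeleton, Myh9, Myh10, Myl9, Tpm1, Tpm4, Flna, Actn1 and Tubb1, were followed across all 8 libraries. They were chosen by symbol, and 8 of the 37991 gene identifiers of the count table carried one of these symbols. RNA came from Flt3- LSK cells of bone marrow, a lineage-negative, Sca-1 and Kit positive fraction enriched for blood stem cells, with 24000 cells sorted for each sample. The C57BL/6J mice were either WT, given in the design text as Runx1f/f, or Mut, given as Runx1 deficient. No treatment is named, and the sources used here do not give the deleter strain, the deleted part of Runx1, the age of the mice or any pooling of animals. Each of the 2 WT and 2 Mut samples was measured in a library from polyA-selected RNA (mRNA library) and in a library from total RNA.

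Megakaryocytes are the bone marrow cells that shed platelets. They enlarge by replicating DNA without dividing and then extend long processes whose shape depends on non-muscle myosin II, actin filaments and a coil of microtubules. Non-muscle myosin II is built of heavy chains, encoded by Myh9 (isoform IIA) or Myh10 (isoform IIB), and light chains, of which Myl9 encodes a regulatory one. In maturing megakaryocytes RUNX1, a transcription factor of blood cell development, is known as a repressor of Myh10 and as an activator of Myl9. Tropomyosins (Tpm1, Tpm4) coil along actin filaments, filamin A (Flna) and alpha-actinin 1 (Actn1) join the filaments, and Tubb1 encodes the beta-tubulin of the platelet microtubule ring.

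The stretches upstream of the 3 myosin chain genes are shown because the results turn most on Myh10, its partner Myh9 and Myl9, and because the study is about cells labelled as deficient in RUNX1. Each holds the 250 bases before the RefSeq start (build GRCm38.p6, which is not the mm9 build of the counts), 5′ to 3′ on the gene's strand, with matches to the searched motifs in capitals.
Myh9 (chr15:77842176-77842425, - strand): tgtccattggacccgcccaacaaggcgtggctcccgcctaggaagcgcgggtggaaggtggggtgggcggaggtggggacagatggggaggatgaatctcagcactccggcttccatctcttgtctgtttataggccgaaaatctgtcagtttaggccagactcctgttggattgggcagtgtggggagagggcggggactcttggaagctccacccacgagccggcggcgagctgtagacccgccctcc
Myh10 (chr11:68691665-68691914, + strand): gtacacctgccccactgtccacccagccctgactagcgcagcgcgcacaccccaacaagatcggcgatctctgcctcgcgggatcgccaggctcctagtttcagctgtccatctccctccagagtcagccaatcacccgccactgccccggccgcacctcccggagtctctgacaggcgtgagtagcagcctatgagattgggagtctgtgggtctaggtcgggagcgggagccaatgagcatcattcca
Myl9 (chr2:156775214-156775463, + strand): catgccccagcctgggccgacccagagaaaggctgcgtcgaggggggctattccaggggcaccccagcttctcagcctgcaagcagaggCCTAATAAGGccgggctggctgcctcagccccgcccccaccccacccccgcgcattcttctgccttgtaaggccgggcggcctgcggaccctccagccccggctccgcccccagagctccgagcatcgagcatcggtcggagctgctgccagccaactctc

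All 8 genes had an entry in the RefSeq promoter table, and each was searched on both strands from 250 bases before to 50 bases after the start. The RUNX core letters TGTGGT were found in 0 of the 8, while 16.8% of all 32851 promoters hold them. The GATA letters AGATAA were also found in 0 of the 8, against 11.2% of all promoters. The CArG box, the motif of serum response factor, was found in 1 of the 8, against 1.63% of all promoters. That match, CCTAATAAGG in the Myl9 promoter, began 161 bases before the start and reads as a CArG box on both strands. These matches describe letters within the window only. In the count table the 3 genes are ENSMUSG00000022443 (Myh9), ENSMUSG00000020900 (Myh10) and ENSMUSG00000067818 (Myl9), and the others are ENSMUSG00000032366 (Tpm1), ENSMUSG00000031799 (Tpm4), ENSMUSG00000031328 (Flna), ENSMUSG00000015143 (Actn1) and ENSMUSG00000016255 (Tubb1).

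Library depth and the labels bear on every value. Counts assigned to genes were 35096252 to 37924699 in the mRNA libraries and 967694 to 1218437 in the total RNA libraries, where rRNA took 93.3 to 94.5% of all counts. The share of ERCC spike-in counts differed between replicates 1 and 2 of a group. It was 0.647 and 0.312% in WT and 0.883 and 0.380% in Mut-labelled mRNA libraries. In total RNA libraries it was 0.0239 and 0.0307% in WT and 0.0423 and 0.0898% in Mut-labelled samples. Calls under ERCC scaling carry that spread. Runx1 itself, a count over the whole gene that cannot check a deletion within it, was higher in the libraries labelled Mut, at 200 and 208 CPM (count values scaled to library size) in WT against 749 and 941 in Mut-labelled mRNA libraries (log2 fold change 2.05, SE 0.18, adjusted p = 0.00753 by edgeR, and 1.73 with adjusted p = 0.999 under ERCC spike-in scaling). Such a count can neither bear out nor contradict the label, so the group is called Mut-labelled, and every direction rests on the labels. Kit and Cd34, genes of the sorted fraction, had at least 33371 and 21936 counts in each mRNA library, and Ly6a, which encodes the Sca-1 marker, had 900 to 1474. Flt3, whose surface protein the gate selects against, had 2005 to 5928 counts. In a bulk sample, fewer cells of a type and less RNA per cell cannot be told apart.

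In the mRNA libraries 1 of the 8 genes, Myh10, was called by edgeR's quasi-likelihood test at an adjusted p under 0.05, and it was lower in the Mut-labelled samples. Over all 17128 genes tested there, 3.64% were called in either direction, 1.75% as higher and 1.89% as lower. DESeq2 called 1 higher (Tpm1) and 2 lower (Myh10 and Myl9), beside 1500 calls over all genes. It was fitted with no filter on low counts beforehand, so its 1500 calls are not out of the 17128, and their share is not given. By edgeR 6 of the 8 had an unadjusted p below 0.05, beside 2682 of the 17128. The CPM of the 2 groups did not overlap for any of the 8 genes, 4 being higher and 4 lower in Mut-labelled libraries, but with 2 libraries a group this held for 44.6% of all genes tested, 21.4% as higher and 23.1% as lower. The median log2 fold change of the 8 was -0.03, beside -0.01 for all genes. In the total RNA libraries 6 of the 8 passed the filter on low counts, and again Myh10 alone was called (edgeR), with 3 of the 6 at an unadjusted p below 0.05, beside 1559 of all 10546. There 4.22% of 10546 genes were called, 2.54% as higher and 1.68% as lower. The groups did not overlap for 4 of these 6 genes, 1 higher and 3 lower, beside 44.0% of all genes tested (22.5% higher, 21.4% lower).

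**Figure D1:**
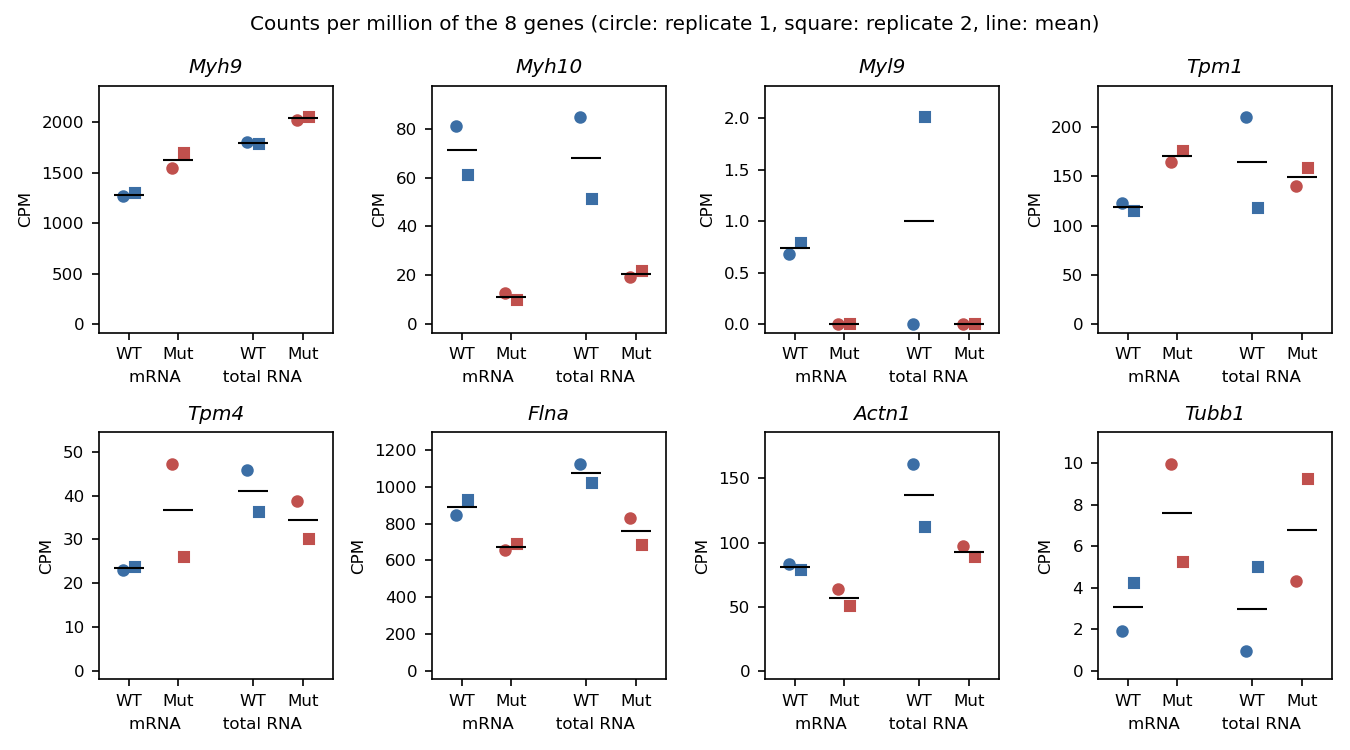
CPM (vertical axis, linear, from 0) of each of the 8 genes in WT (blue) and Mut-labelled (red) libraries, mRNA libraries left and total RNA libraries right in each panel. Circles are replicate 1, squares replicate 2 and lines the mean of 2 libraries; Myh10 lay at 9.99 to 12.7 CPM in Mut-labelled and 61.2 to 81.1 CPM in WT mRNA libraries.

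Myh9, the heavy chain of myosin IIA, had the highest mean of the 8 genes per length in every group. In the mRNA libraries it stood at 1272 and 1296 CPM in WT replicates 1 and 2 and at 1551 and 1699 CPM in Mut-labelled replicates 1 and 2. Both Mut-labelled libraries lay above both WT libraries. The log2 fold change was 0.34 (SE 0.18, adjusted p = 0.467 by edgeR), and it did not pass the test. From total RNA Myh9 stood at 1804 and 1779 CPM in WT against 2026 and 2050 in Mut-labelled libraries, a log2 fold change of 0.19 (SE 0.14, adjusted p = 0.605 by edgeR). Scaling by ERCC spike-in counts put Myh9 at -0.01 in mRNA and -0.90 in total RNA libraries. The same scaling moved the median of all genes to -0.38 and -1.10, so Myh9 lay above that median in both.

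Myh10, the heavy chain of myosin IIB, fell in the Mut-labelled samples in both kinds of library. In the mRNA libraries it had 3076 and 2339 counts in WT and 444 and 365 counts in Mut-labelled replicates 1 and 2, or 81.1, 61.2, 12.7 and 9.99 CPM. The groups were far apart, and WT replicate 1 was the highest library. The means were 71.1 ± 14.0 and 11.3 ± 1.91 CPM (SD, n = 2 each), a 6.27-fold difference with a log2 fold change of -2.65 (SE 0.22, adjusted p = 0.00697 by edgeR). From total RNA the counts were 87 and 51 in WT and 18 and 26 in Mut-labelled replicates. These are 84.7, 51.2, 19.4 and 21.8 CPM, again with no overlap and with WT replicate 1 highest. The log2 fold change there was -1.71 (SE 0.31, adjusted p = 0.00193 by edgeR). Under ERCC scaling the mRNA value was -3.02 with a larger SE of 1.12 and no longer called (edgeR adjusted p = 0.292). The total RNA value was -2.90 (SE 0.66) and called (edgeR adjusted p = 0.00145).

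The fall was smaller in the total RNA than in the mRNA libraries by 0.97 on the log2 scale (SE 0.40), a difference of unadjusted p = 0.0334 that did not pass adjustment in the edgeR interaction test over all 8 libraries (adjusted p = 1.0, and 0.214 with the sorted sample as a block). Under ERCC scaling that difference was 0.12, beside a median of -0.73 over all genes (0.04 without that scaling). No gene of 17416 passed that interaction test by edgeR, which makes 0.0% called in either direction, with 687 at an unadjusted p below 0.05. In simulated data that edgeR test recovered 3% of genes changed by 1 log2 unit and 50.5% of those changed by 2 units. A difference of the size seen for Myh10 would thus mostly be missed. DESeq2 called 11, and edgeR with the sorted sample as a block called 111, none of them among the 8 genes. For Tpm1 and Tpm4 the same difference was -0.61 (SE 0.31) and -0.86 (SE 0.43), each with an adjusted p = 1.0 by edgeR. It was between -0.11 and -0.01 for Myh9, Flna and Actn1 (SE 0.21, 0.22 and 0.28). For Tubb1 it was -0.06 with an SE of 1.05, too wide to compare the 2 kinds of library. The value of Myl9 is not given.

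Set against its partner, Myh10 made up 5.99% (exact Clopper-Pearson 95% interval 5.79 to 6.20%) and 4.51% (4.33 to 4.69%) of the counts of both heavy chains in WT mRNA libraries. In the Mut-labelled mRNA libraries its share was 0.811% (0.738 to 0.890%) and 0.584% (0.526 to 0.647%). The intervals cover counting error only, since no molecular identifiers are named for these libraries and reads of 1 molecule can be counted more than once. From total RNA the shares were 4.48% and 2.80% in WT and 0.948% and 1.05% in Mut-labelled libraries, with exact intervals that reached down to 2.09% in WT and up to 1.54% in Mut-labelled libraries. The group means were 5.25 ± 1.05% and 0.698 ± 0.161% in mRNA and 3.64 ± 1.19% and 1.0 ± 0.074% in total RNA libraries (SD, n = 2 each). An exact two-sided permutation test gave p = 0.333 for each kind of library, the smallest value that 2 against 2 samples allow. Of all distinct 50-base stretches of Myh10 transcripts in GENCODE M21, 0.689% also occurred in another gene, most often Myh9, so few reads could be assigned to either.

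**Figure D2:**
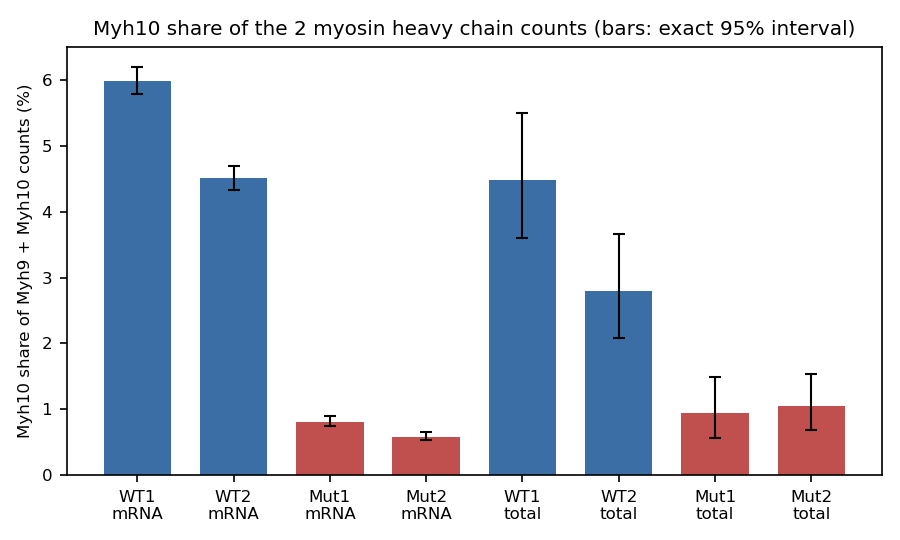
Share of Myh10 in the summed counts of Myh10 and Myh9 (percent, vertical axis from 0) in each of the 8 libraries, WT in blue and Mut-labelled in red, with exact 95% binomial intervals. The Mut-labelled shares lie between 0.584% and 1.05% and the WT shares between 2.80% and 5.99%.

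Myl9, the regulatory light chain gene with a CArG box in its promoter, was barely detected. It had 26 and 30 counts in the WT mRNA libraries (0.685 and 0.785 CPM) and 0 counts in both Mut-labelled mRNA libraries. Set at a floor of 3 counts in each Mut-labelled library, its level there would be 8.76-fold below the WT mean. That fold is no firm bound, since it leaves out the spread between replicates. The edgeR test did not call Myl9 (adjusted p = 0.0839). From total RNA it had 0 and 2 counts in WT and 0 counts in both Mut-labelled libraries, and its WT level in the mRNA libraries would give only 0.763 and 0.736 counts there, so a difference was not detectable at this depth. None of the 50-base stretches of Myl9 transcripts occurred in another gene. The other regulatory light chain genes, Myl12a and Myl12b, were far more abundant: per kilobase of exon they stood at 41.3 ± 9.70 and 90.6 ± 7.99 CPM in WT mRNA libraries, where Myl9 stood at 0.633 ± 0.061 (SD, n = 2 each). Their log2 fold changes were 0.07 and -0.16 (edgeR adjusted p = 0.941 and 0.718).

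Myl9 is also a smooth muscle gene, and 5 of 7 markers of that tissue had at most 35 counts in each mRNA library. Cnn1 had 0 counts in both WT and 35 and 5 counts in the Mut-labelled mRNA libraries, Des had 0 in both WT and 6 and 5, Myh11 had 0 to 13 and Lmod1 had 0 in all. Acta2, the smooth muscle actin gene, had 7 counts in each WT and 26 and 11 in the Mut-labelled libraries. The summed level of all 7 markers was 28.8 and 24.6 CPM in WT against 53.7 and 38.0 in Mut-labelled mRNA libraries, most of it from Mylk, the myosin light chain kinase gene, and Tagln had 63 to 151 counts. The collagen gene Col1a1, a stromal marker, had 2047 and 1725 counts in the WT and 1895 and 55 counts in the Mut-labelled mRNA libraries. Another stromal marker, Pdgfrb, had 2260 and 2776 counts in WT and 1981 and 4567 counts in Mut-labelled libraries, so these markers did not move together. The part of other cell types in the Myl9 counts was not tested.

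Of the tropomyosins, Tpm1 stood at 123 and 115 CPM in WT against 165 and 176 in Mut-labelled mRNA libraries. The groups did not overlap, and the replicates of each lay close together. The log2 fold change was 0.52 (SE 0.12, adjusted p = 0.0994 by edgeR), a call that DESeq2 made (adjusted p = 0.0276) and edgeR did not. In the total RNA libraries the order was not the same: WT replicate 1 was highest at 210.3 CPM and WT replicate 2 lowest at 118 CPM, with 140.1 and 158 CPM in Mut-labelled libraries between them. This is -0.14 on the log2 scale (SE 0.21, adjusted p = 0.851 by edgeR), and 0.34 without WT replicate 1.

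Tpm4, whose product is abundant in platelets, stood at 23.1 and 23.7 CPM in WT against 47.3 and 25.9 in Mut-labelled mRNA libraries. The difference came mostly from Mut-labelled replicate 1. The log2 fold change was 0.65 (SE 0.30, adjusted p = 0.395 by edgeR), and it was 0.15 without Mut-labelled replicate 1 and 1.02 without Mut-labelled replicate 2. From total RNA Tpm4 had 47 and 36 counts in WT and 36 in each Mut-labelled library, a log2 fold change of -0.26 (SE 0.29, adjusted p = 0.768 by edgeR). Of its 50-base stretches 15.7% also occurred in another gene, mostly the pseudogene Gm7809, so its counts are less certain than those of Tpm1, for which the share was 0.0%. Mut-labelled replicate 1 was also the library with the highest sum of the listed neutrophil markers, 556 CPM against 158 in Mut-labelled replicate 2 and 174 and 121 in WT. The part of this in the Tpm4 values was not tested.

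The actin cross-linkers Flna and Actn1 were lower in the Mut-labelled libraries of both kinds without passing the edgeR test fitted with no replicate block. Flna, which also ties the platelet von Willebrand receptor to actin, stood at 845 and 932 CPM in WT against 657 and 690.0 in Mut-labelled mRNA libraries. Both Mut-labelled libraries lay below both WT libraries. Its log2 fold change was -0.40 (SE 0.16, adjusted p = 0.308 by edgeR). From total RNA it stood at 1127 and 1023 CPM in WT against 831 and 685 in Mut-labelled libraries, again with no overlap. It was -0.51 on the log2 scale there (SE 0.16, adjusted p = 0.0834 by edgeR), and the call was made without Mut-labelled replicate 1 (adjusted p = 0.0282) and with no filter on low counts (adjusted p = 0.0182).

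Actn1 stood at 83.4 and 78.7 CPM in WT against 63.7 and 50.2 in Mut-labelled mRNA libraries, with no overlap. The log2 fold change was -0.51 (SE 0.16, adjusted p = 0.178 by edgeR). From total RNA it stood at 162 and 112 CPM in WT against 97.0 and 88.8 in Mut-labelled libraries, a log2 fold change of -0.56 (SE 0.20, adjusted p = 0.159 by edgeR, and 0.0241 without WT replicate 2). Its relative Actn4, the broadly expressed non-muscle alpha-actinin, stood at 379 ± 0.643 and 398 ± 12.2 CPM in mRNA libraries (SD, n = 2 each), which is 0.07 on the log2 scale. Actn1 thus made up 18.0% and 17.2% of the counts of both in WT and 13.5% and 11.4% in Mut-labelled mRNA libraries (exact two-sided permutation p = 0.333, the smallest possible). From total RNA the shares were 29.9% and 24.3% in WT and 21.4% and 23.1% in Mut-labelled libraries (same test, exact p = 0.333), and Actn4 was at -0.16 on the log2 scale (edgeR adjusted p = 0.723). Antisense transcripts overlap exons of Actn1 over 363 and 88 bases in GENCODE M21, and 6.79% of its 50-base stretches are shared, mostly with one of these, Gm47766.

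Tubb1, the beta-tubulin gene of megakaryocytes and platelets, was scarce in these cells. It had 72 and 161 counts in WT and 349 and 192 counts in Mut-labelled mRNA libraries, or 1.90, 4.21, 9.97 and 5.25 CPM. The groups did not overlap, but the replicates of each group lay far apart. The log2 fold change was 1.32 (SE 0.51, adjusted p = 0.298 by edgeR), ranging from 0.78 without Mut-labelled replicate 1 to 2.02 without WT replicate 2. From total RNA it had 1 and 5 counts in WT and 4 and 11 in Mut-labelled libraries, which overlapped, and it did not pass the filter on low counts.

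**Figure D3:**
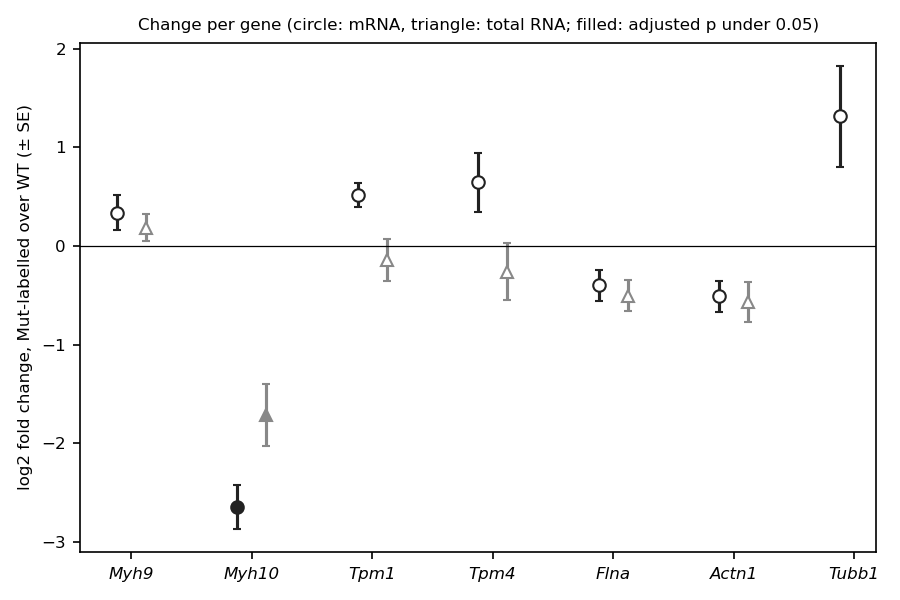
Log2 fold change of Mut-labelled over WT with its SE (vertical axis) for 7 of the 8 genes, circles for mRNA and triangles for total RNA libraries, filled where the edgeR adjusted p was under 0.05. Only the Myh10 points, at -2.65 and -1.71, are filled; Tpm1 and Tpm4 lie above 0 in mRNA and below 0 in total RNA libraries; Tubb1 was tested in mRNA libraries alone, and Myl9 is left out because its counts were 0 in Mut-labelled libraries.

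Levels were compared between genes after division by merged exon length in GENCODE M21, which is not the annotation behind the counts. In WT mRNA libraries the order, in CPM per kilobase, was Myh9 (99.3 ± 1.27), Flna (94.5 ± 6.49), Tpm1 (18.4 ± 0.854), Actn1 (14.6 ± 0.599), Tpm4 (10.6 ± 0.190), Myh10 (6.80 ± 1.34), Tubb1 (2.17 ± 1.16) and Myl9 (0.633 ± 0.061; SD, n = 2 each). The libraries of Myh9 and Flna overlapped, and the other neighbours did not. In the Mut-labelled mRNA libraries Myh9 (126 ± 8.06) stood clear of Flna (71.7 ± 2.45), and Tpm1 followed at 26.3 ± 1.2. Tpm4 (16.6 ± 6.87) and Actn1 (10.3 ± 1.72) were within their spread of each other there, and Tubb1 (5.42 ± 2.37) stood above Myh10 (1.08 ± 0.183; SD, n = 2 each). Myh10 in Mut-labelled mRNA libraries was thereby at the level of Myh14, the third non-muscle heavy chain gene (1.03 ± 0.067). In Mut-labelled total RNA libraries Myh10 stood at 1.855 and 2.084 and Myh14 at 0.7408 and 1.844 CPM per kilobase. For scale, the cytoplasmic actin gene Actb stood at 956 ± 129 and 962 ± 168 and the main beta-tubulin gene Tubb5 at 569 ± 45.9 and 594 ± 131 CPM per kilobase in WT and Mut-labelled mRNA libraries (SD, n = 2 each).

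**Figure D4:**
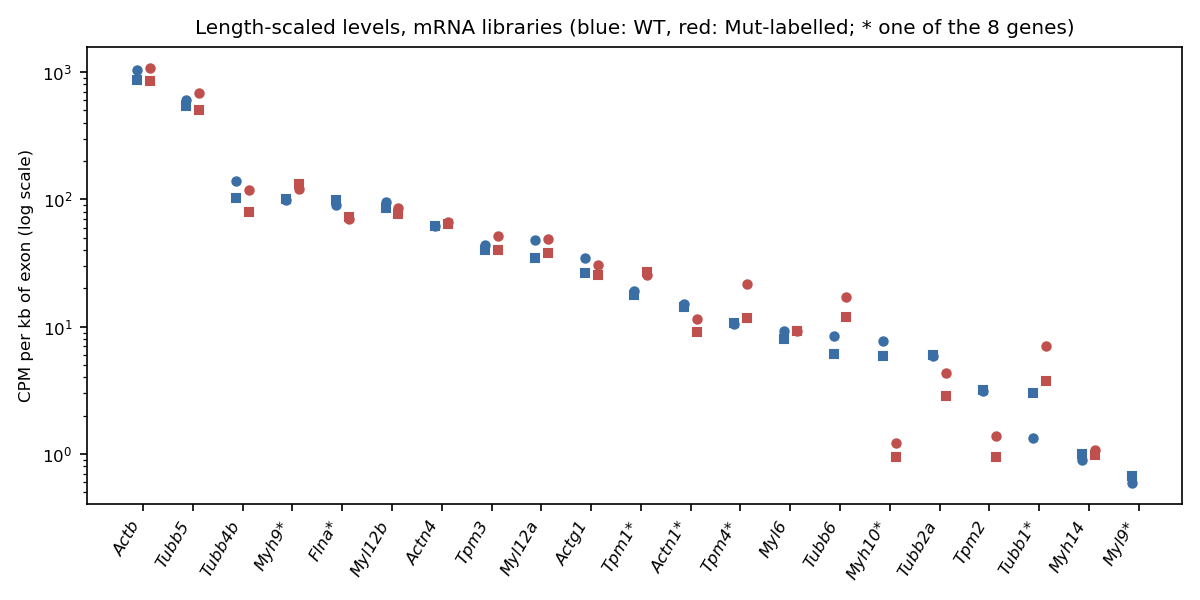
CPM per kilobase of merged exon (vertical log axis) in the 4 mRNA libraries for the 8 genes (starred) and their relatives, ordered by the WT level, WT in blue and Mut-labelled in red, circles replicate 1 and squares replicate 2. Values of 0 cannot be drawn on a log axis, so Myl9 shows WT points only; Myh10 drops from 6.80 to 1.08 CPM per kilobase, close to that of Myh14.

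Other genes of the actin, myosin and tubulin systems, the membrane skeleton and regulators of the megakaryocyte line were compared in the same way. Over 7 lists of 78 genes in all, 76 were tested in mRNA libraries, of which 1 was called higher and 3 lower by edgeR, or 5.26% beside 3.64% of all genes. The call that was higher is Runx1 itself. DESeq2 called 5 higher and 6 lower, beside its 1500 calls over all genes, and 16 of the 76 had an unadjusted p below 0.05 by edgeR, beside 2682 of 17128. The median log2 fold change of these genes was 0.07, with 50 positive and 26 negative. From total RNA 69 were tested, and 2 were called higher (Runx1 and Tubb6) and 1 lower (Ank1), or 4.35% beside 4.22%.

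Among 13 genes of myosin light chains, kinases and other regulators, 0 were called by edgeR in either kind of library, with 2 at an unadjusted p below 0.05 in each, and the median in mRNA libraries was 0.11. The most abundant were Myo18a, an unconventional myosin (log2 fold change 0.02, adjusted p = 0.978), and Ppp1cb, the catalytic subunit of myosin phosphatase (0.11, adjusted p = 0.858). Myh14 (0.12) and the essential light chain gene Myl6 (0.11) also did not pass the test (edgeR adjusted p = 0.913 and 0.869). From total RNA both had negative values, -1.24 for Myh14 and -0.45 for Myl6 (edgeR adjusted p = 0.18 and 0.63).

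Of the tropomyosin, actin and tropomodulin list, 0 of 6 tested genes were called in mRNA libraries by edgeR, and 2 reached an unadjusted p below 0.05, with a list median of -0.06. Tpm2, the tropomyosin gene typical of muscle, stood at 9.18 ± 0.12 and 3.41 ± 0.916 CPM (SD, n = 2 each), which is -1.43 on the log2 scale (edgeR adjusted p = 0.0777). DESeq2 called it (adjusted p = 0.00508), and its log2 fold change without Mut-labelled replicate 1 was -1.73 by edgeR. Tpm3, the most abundant tropomyosin gene here, stood at 256 and 281 CPM and Actb at 2560 and 2578 CPM in WT and Mut-labelled mRNA libraries, with log2 fold changes of 0.13 and 0.01.

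Of the cross-linker and adhesion list, 0 of 12 tested genes were called in mRNA libraries by edgeR, and 4 reached an unadjusted p below 0.05, with a list median of 0.17. The most abundant were the integrin-binding genes Tln1 (log2 fold change 0.08) and Fermt3 (0.31), at edgeR adjusted p = 0.915 and 0.398. Genes of actin turnover had 0 of 12 called in mRNA libraries by edgeR, and 0 with an unadjusted p below 0.05, with a median of 0.11, and Pfn1 and Cfl1, the profilin and cofilin genes, at 0.20 and -0.01.

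Of 13 tubulin genes, 0 were called in mRNA libraries by edgeR, and 1 reached an unadjusted p below 0.05, with a list median of -0.03. That gene, Tubb6, stood at 17.7 ± 4.03 and 35.3 ± 9.12 CPM (SD, n = 2 each), which is 0.99 on the log2 scale (edgeR adjusted p = 0.131). DESeq2 called it in these libraries (adjusted p = 0.00549). It rose in the total RNA libraries by 1.45 on the log2 scale (edgeR adjusted p = 0.0175), a call that was lost without WT replicate 2 (1.18, edgeR adjusted p = 0.0664), without Mut-labelled replicate 1 (1.24, edgeR adjusted p = 0.125) and by DESeq2 (1.46, adjusted p = 0.443). Tubb2a was at -0.71 on the log2 scale (edgeR adjusted p = 0.357), and the abundant genes Tubb5 and Tuba4a had 0.06 and 0.05.

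By edgeR the membrane skeleton was the only one of the 7 lists with calls in mRNA libraries other than that of Runx1. Of 8 spectrin, ankyrin, protein 4.1 and adducin genes, edgeR called 3 as lower and 0 as higher, beside 1.89% and 1.75% of all genes tested. Of the 8 log2 fold changes 3 were positive and 5 negative, with a median of -0.54. Ank1, the ankyrin of the red cell, was at -1.85 on the log2 scale (adjusted p = 0.0309 by edgeR), Add2, an adducin subunit, -1.74 (adjusted p = 0.023), and Sptb, the red cell beta-spectrin, -1.42 (adjusted p = 0.0488). The call of Sptb was lost without WT replicate 1 or Mut-labelled replicate 2 and with RLE scaling (edgeR adjusted p = 0.0652, 0.066 and 0.0508). Under ERCC scaling all 3 stayed lower in mRNA libraries and none was called there (edgeR adjusted p = 0.809 to 0.999). These 3 are genes of the red cell, and red cell markers were lower too, with a summed level over 6 genes of 513 and 370 CPM in WT against 161 and 133 in Mut-labelled mRNA libraries. The part of that in the 3 calls was not tested. Sptan1 and Sptbn1, the spectrin genes used outside red cells, had log2 fold changes of 0.19 and 0.25 (edgeR adjusted p = 0.709 and 0.631). Ank1 alone of the 8 was called in total RNA libraries, with a log2 fold change of -1.92 (edgeR adjusted p = 4.71e-04). It kept that call under ERCC scaling (-3.07, edgeR adjusted p = 8.17e-04).

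Of 12 regulators of the megakaryocyte line, Runx1 alone was called by edgeR, in both kinds of library. The abundant regulators Gata2 (log2 fold change 0.14) and Zfpm1 (-0.01), which encode a GATA factor and a GATA cofactor, did not pass the test (edgeR adjusted p = 0.84 and 0.991).

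**Figure D5:**
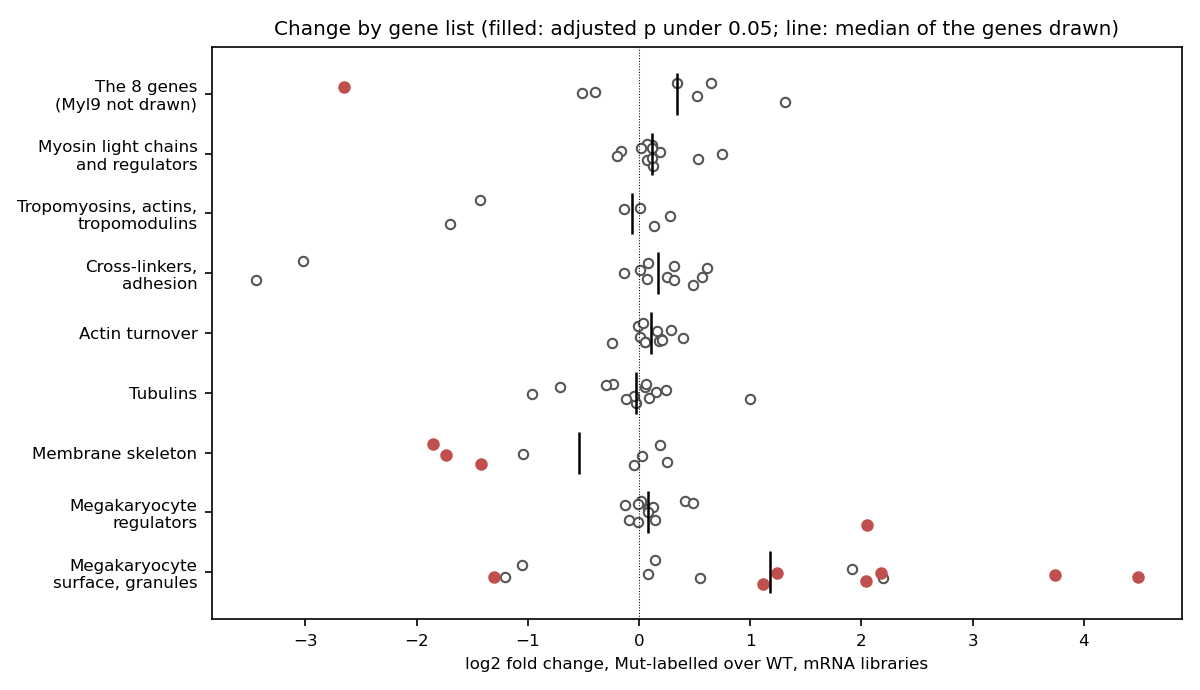
Log2 fold change of Mut-labelled over WT in mRNA libraries (horizontal axis) of each tested gene in the 8-gene set, 7 related lists and the megakaryocyte surface and granule markers, filled where the edgeR adjusted p was under 0.05, with the median of the genes drawn as a line. Calls stand out in the megakaryocyte markers (6 higher, 1 lower) and the membrane skeleton (3 lower), and 1 of the 7 drawn genes of the set, Myh10, is filled. Without Myl9 the drawn median of the set is not the -0.03 of all 8.

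The cytoskeletal genes are set beside the surface and granule markers of megakaryocytes. Of 14 such markers, edgeR called 6 as higher and 1 as lower in mRNA libraries, beside 1.75% and 1.89% of all genes tested. Of their log2 fold changes 11 were positive and 3 negative, with a median of 1.18. The CPM of all 14 summed to 1074 and 1001 in WT against 2577 and 2335 in Mut-labelled libraries. Pf4 and Gp1bb were lower without being called. Pf4 stood at 47.5 and 23.6 CPM in WT against 24.3 and 6.65 in Mut-labelled mRNA libraries. Gp1bb stood at 10.9 and 6.49 against 5.54 and 2.85 CPM. Treml1 and Clec1b, platelet receptor genes, rose by 3.74 and 4.49 on the log2 scale (edgeR adjusted p = 0.0033 and 0.00784). Itga2b (2.04), Gp5 (2.18), Selp (1.24) and Itgb3 (1.11), which encode platelet adhesion proteins, also rose, with edgeR adjusted p = 0.00608, 0.0103, 0.0105 and 0.0317. Itgb3 lost its call without WT replicate 1 (edgeR adjusted p = 0.0584). Vwf, the clotting factor gene, fell by 1.31 (edgeR adjusted p = 0.0309). Under ERCC scaling the 7 called genes kept their direction in mRNA libraries and none was called there, with Clec1b nearest (edgeR adjusted p = 0.0807). Their SEs were larger there: Itga2b was at 1.68 on the log2 scale with an SE of 1.065, against 0.162 without that scaling. In total RNA libraries Treml1 and Vwf were called under ERCC scaling (edgeR adjusted p = 0.0492 and 0.0394). Itga2b, Itgb3, Gp5, Clec1b and Selp were not called there (edgeR adjusted p from 0.0925 to 0.651). The difference between these markers and the cytoskeletal set was not tested, and the markers' part in the values of the 8 genes was not tested.

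Marker sums of other cell types are given beside these values. Given first for WT 1 and 2 and then for Mut-labelled 1 and 2 (mRNA libraries), stromal markers summed to 191, 171, 170.2 and 132 CPM and endothelial markers to 390.3, 381, 378 and 401 CPM. Of the stromal sums Pdgfrb alone gave 59.55, 72.62, 56.62 and 124.9 CPM. Macrophage markers summed to 59.1, 36.7, 71.7 and 45.9 CPM and B cell markers to 916, 6962, 335 and 1437 CPM. Markers of stem and progenitor cells summed to 1765, 1785, 1714 and 1983 CPM. Calls among these lists in mRNA libraries were the endothelial gene Kdr (log2 fold change 2.89) and the neutrophil gene Retnlg (3.56) as higher and the red cell genes Car1 (-4.23) and Klf1 (-2.0), the immunoglobulin gene Ighm (-3.23) and the stem cell genes Procr (-2.13) and Mecom (-2.06) as lower. Under ERCC scaling Car1 alone of these 7 was called in mRNA libraries (edgeR adjusted p = 0.0198), the others having adjusted p from 0.114 to 0.737. In total RNA libraries Car1, Ighm, Mecom and Klf1 were called under that scaling (edgeR adjusted p = 8.24e-09, 9.25e-06, 1.76e-04 and 9.29e-04). Kdr was not called there (edgeR adjusted p = 0.158), and Procr and Retnlg did not pass the filter on low counts. In mRNA libraries the log2 fold change of Retnlg was 2.48 without Mut-labelled replicate 1. The neutrophil genes S100a8, S100a9 and Ltf were called by edgeR in total RNA (log2 fold changes 2.77, 2.57 and 2.41) but not in mRNA libraries. DESeq2 called them in mRNA (adjusted p = 0.0187, 0.0161 and 0.00781) but not in total RNA libraries (adjusted p = 0.1, 0.166 and 0.18). Without Mut-labelled replicate 1 their log2 fold changes in mRNA libraries were 1.767, 1.781 and 1.66. In total RNA libraries the lowest values without a replicate were 1.987, 0.878 and 2.005.

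The genes whose profile over the 8 libraries was most like that of Myh10 were Scube3, Ces2g and Sphk1, among 9685 genes that have a symbol and a mean of at least 10 CPM in both kinds of library. Their profiles of log2(CPM + 1), each centred within a kind of library, differed from that of Myh10 by a root mean square of 0.17, 0.17 and 0.19, beside a median of 1.11 over all genes compared. In the mRNA libraries Scube3, a gene of a secreted protein, stood at 27.8 ± 3.39 and 3.24 ± 0.792 CPM, Ces2g, a carboxylesterase gene, at 77.6 ± 12 and 13.8 ± 1.53 CPM, and Sphk1, a sphingosine kinase gene, at 45.0 ± 14.2 and 7.77 ± 0.814 CPM (SD, n = 2 each). For Myl9, whose level lay below the added 1 CPM, the nearest were Mtfp1, C1rl and Trpv2, with differences of 0.17, 0.20 and 0.21 beside a median of 0.60. The points share libraries and the 2 groups, so likeness is a description only.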

How the data were processed

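RNA sequencing counts of 8 libraries were analysed, with 2 WT and 2 Mut-labelled samples in mRNA and total RNA libraries. The deposited values were raw counts, whole numbers with no normalisation. Per the submitters' processing notes, the build was mm9 and the tools TopHat, featureCounts and edgeR. The sources used here do not give the annotation release or how strand and multiply mapped reads were handled. Symbols came from a GENCODE M21 table, which matched 32919 of 37991 identifiers. ERCC and rRNA entries were left out of totals and tests. Groups were compared with edgeR 4.0.16 (R 4.3.3) on the counts: TMM scaling, filterByExpr, two-sided quasi-likelihood test, Benjamini-Hochberg adjustment over all genes tested, calls at an adjusted p under 0.05. CPM is after TMM. Alternatives were RLE size factors, DESeq2 1.42.0, no filter on low counts, ERCC scaling, a replicate block and leaving out each replicate.

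The labels do not say whether replicates are separate animals, so p-values measure only how far these libraries differ, which could be technical. Replicates differed beyond sampling noise (chi-square per degree of freedom 65.1 and 60.9 in mRNA and 3.13 and 2.60 in total RNA libraries, WT and Mut-labelled). Same-named mRNA and total RNA libraries were read as 1 sorted sample, and their deviations from the group mean correlated across 10509 genes at 0.38 (WT) and 0.44 (Mut-labelled). The fit was tested on simulated data: of genes changed 1 log2 unit, 23.2% were recovered in the mRNA design (17128 genes) and 41.7% in the total RNA design (10546 genes), and of those changed 2 units, 79.8% and 87.6%. In the interaction design (17416 genes) 3% and 50.5% were recovered at 1 and 2 units.

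The 8 genes and all lists were chosen with earlier results of these data known. Named were the 8 genes, Runx1, list genes that were called, the 2 most abundant genes of each pathway list, close relatives of the 8 (except 1 that is not reported here), and the 3 genes most like Myh10 and Myl9. Diap1, Diap2 and Mkl1 were matched through RefSeq synonyms to Diaph1, Diaph2 and Mrtfa; Hbb-b1 was not matched.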

Additional observations from a re-analysis of the deposited data

How the results depend on the processing

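The fall of Myh10 kept its direction in all 9 alternatives of each kind of library. Its range without a replicate was -2.83 to -2.43 in mRNA and -2.02 to -1.30 in total RNA libraries, and ERCC scaling in mRNA libraries was the 1 alternative that ended a call. Depth limits Myl9 and Tubb1 in total RNA libraries.

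Genes called in mRNA libraries (624: 300 higher, 324 lower) were 1500 (699 and 801) by DESeq2, 170 (16 and 154) under ERCC scaling and 602 to 815 (244 to 364 and 351 to 451) without a replicate. In total RNA libraries (445: 268 and 177) they were 170 (125 and 45) by DESeq2, 724 (369 lower) with no filter, 373 (13 and 360) under ERCC scaling and 386 to 598 (209 to 334 and 177 to 264) without a replicate. The interaction gave 11 (all lower) by DESeq2 and 0 to 1 (lower) without a replicate, the 1 without Mut-labelled replicate 1.

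Of the 8 genes, DESeq2 called 1 higher and 2 lower in mRNA libraries, and ERCC scaling called 0 lower. In total RNA libraries 2 were lower with no filter and 1 to 2 without a replicate. Pathway list genes called in mRNA libraries were 5 higher and 6 lower by DESeq2, 0 and 0 under ERCC scaling, and 1 and 2 to 5 without a replicate. In total RNA libraries they were 1 higher by DESeq2, 2 lower with no filter, 0 higher and 5 lower under ERCC scaling, and 1 to 3 higher and 1 to 3 lower without a replicate. The cause of these shifts was not tested.

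WT and Mut-labelled samples share replicate numbers 1 and 2, and nothing in the labels pairs them. The WT and Mut-labelled differences between replicates 1 and 2 correlated at 0.30 in mRNA and 0.23 in total RNA libraries. With the replicate block, 2870 of the 17128 genes tested (1331 and 1539) were called in mRNA and 870 of 10546 (493 and 377) in total RNA libraries. Of the 8 genes, the block called 2 higher (Myh9 and Tpm1, edgeR adjusted p = 0.00902 and 4.76e-04) and 4 lower (Myh10, Myl9, Flna and Actn1, with 0.00277 for Flna and 0.00181 for Actn1) in mRNA libraries. In total RNA libraries it called 3 lower (Myh10, Flna and Actn1, with 5e-04 for Flna and 0.0404 for Actn1). It called 14 and 7 pathway list genes in mRNA and 4 and 4 in total RNA libraries. In the interaction the block on the sorted sample called 111 (4 and 107).

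Under ERCC scaling the log2 fold changes in mRNA libraries turned negative for Myh9 (-0.012), Myh14 (-0.30), Myl6 (-0.22), Myl12a (-0.29), Ppp1cb (-0.31), Myo18a (-0.35), Tuba4a (-0.37), Tubb5 (-0.37), Tpm3 (-0.29), Actb (-0.39), Actn4 (-0.31), Tln1 (-0.27), Fermt3 (-0.065), Pfn1 (-0.19), Sptan1 (-0.16), Sptbn1 (-0.12), Gata2 (-0.15), beside a median of -0.38 for all genes. In total RNA libraries Myh9 turned to -0.90. Genes near 0 that changed sign without a replicate in mRNA libraries ranged as follows: Myo18a -0.075 to 0.12, Cfl1 -0.28 to 0.23, Zfpm1 -0.14 to 0.12, Myl12a -0.14 to 0.33, Tuba4a -0.23 to 0.30, Tubb5 -0.18 to 0.28, Actb -0.18 to 0.19, Ppp1cb -0.078 to 0.29, Tpm3 -0.061 to 0.31, Pfn1 -0.025 to 0.40, Tln1 -0.016 to 0.18, Gata2 -0.084 to 0.34. In total RNA libraries Tpm1 ranged from -0.48 to 0.34.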
